A study of Mus musculus with 16 samples.

Results

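The 9 genes described here encode paired and inhibitory receptors of myeloid cells. They were picked by symbol from the 24411 genes of the count table, and all 9 were found. Of these, Pirb, Pilra, Cd300a, Cd300lf, Lair1, Cd72 and Lst1 encode proteins with inhibitory motifs in their tails, whereas Pilrb1 and Cd300lb encode activating counterparts. RNA had been sequenced from brain macrophages of 8 bone marrow chimeras. Wild-type C57BL/6J mice were irradiated with 950 cGy and received bone marrow whose cells carry the CD45.1 allele, while cells of the host carry CD45.2. All 8 mice had been irradiated, so that the host microglia of the unchallenged mice were irradiated cells too. Mice 1 to 4 received 2.5 mg/kg LPS, bacterial endotoxin given by intraperitoneal injection, and were killed 12 h later. Mice 5 to 8, the controls, received no LPS. The labels give 3.5 or 9 months between transplantation and challenge without assigning a time to any library, whereas the study's text puts the challenge at 9 months. The labels give no age. Cells positive for CD11b and negative for Ly6C/G were sorted from each brain, 10000 with CD45.1 at a low level (engrafted cells) and as many with CD45.2 at a low level (host microglia). This made 16 libraries in 4 groups of 4.

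Inhibitory receptors of this kind carry tyrosine motifs that, once phosphorylated by Src-family kinases, recruit the phosphatases encoded by Ptpn6 and Inpp5d and dampen signals from neighbouring receptors. Activating partners have short tails and signal through adaptors with activation motifs, mainly the product of Tyrobp, and often lie beside their inhibitory relatives in gene clusters. On macrophages and microglia such pairs set the threshold for phagocytosis and cytokine release, and their ligands include MHC class I, collagen, complement C1q and phospholipids exposed on dying cells.

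Between 395283 and 1203597 reads per library fell on genes (median 820587.5), and 3 reads, the most that a count of 0 allows, equalled 2.39 to 8.41 CPM (reads scaled to 1000000 per library), a limit that covers counting error only. CPM were scaled by TMM and are not corrected for gene length, so that levels are compared between groups and not between genes. A gene was called higher or lower when edgeR's quasi-likelihood test gave a Benjamini-Hochberg adjusted p below 0.05 over all genes tested and an absolute log2 fold change above 1. In these sorted bulk samples, fewer cells of a type and less RNA per cell cannot be told apart. All 12 microglia markers listed exceeded 3 reads in some library of each group. Their summed level was 17495 to 19689 CPM in engrafted controls, 7153 to 8491 CPM in engrafted cells after LPS, 27597 to 30904 CPM in host controls and 13709 to 14865 CPM in host microglia after LPS. Perivascular macrophage markers summed to 2521 to 2754 CPM in engrafted controls and 1851 to 2536 CPM in engrafted cells after LPS, against 386 to 529 CPM and 428 to 873 CPM in host microglia, where Lyve1 was at 0. The part of these markers in the differences between the populations was not tested.

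Most members sat in 3 clusters of the mouse genome (NCBI37, mm9, the build of the count table). Pirb (NM_011095, chr7:3664107-3671984) and Lair1 (NM_001113474, chr7:3958675-4014806) had their first bases 342.8 kb apart, both on the minus strand. Pilra (NM_153510, chr5:138263180-138277506) and Pilrb1 (NM_133209, chr5:138293375-138299277) lay on the minus strand together with the second activating gene Pilrb2, within 49.8 kb. Cd300a (NM_170758, chr11:114751355-114765965, plus strand), Cd300lb (NM_199221, chr11:114784095-114795700, minus strand) and Cd300lf (NM_001169153, chr11:114977528-114995306, minus strand) spanned 244.0 kb with 7 further Cd300 genes between them. Lst1 (NM_010734, chr17:35322040-35325385) and Cd72 (NM_001110322, chr4:43460596-43467498) lay elsewhere, both on the minus strand. Reads were counted over the exons of each of these genes, and since libraries of this kind read the 3′ end of transcripts, the end of the model matters. In the annotation the 3′ end lies 1096 bases beyond the table's model for Pirb, which it lists as Lilrb3, and 1262 bases beyond it for Cd72, and reads there were not counted.

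The 250 bases before the start are shown for 6 members called with LPS in either population, of which Lair1 fell and the others rose. Cd300a, called lower in host microglia, is not printed, but its motifs are given below. Sequences were taken from RefSeq's GRCm38.p6 promoter table, which held 8 of the 9 members but not Lst1. Each of the 6 matched the mm9 genome once, directly before the start given in the count table. They are written 5′ to 3′ on the strand of the gene. Capitals mark any of 7 motifs searched on both strands: GAGGAA, the core bound by PU.1, a factor that macrophages depend on, and other ETS proteins, the C/EBP motif TTGCNNAA, the kappaB-type motif (GGGA and CC with any 4 bases between), the interferon response motif (GAAA and GAAA with any 2 bases between), the composite motif of ETS and IRF factors (GGAA and GAAA with any 2 bases between), the AP-1 motif TGANTCA and the STAT motif TTCNNNGAA.
Pirb: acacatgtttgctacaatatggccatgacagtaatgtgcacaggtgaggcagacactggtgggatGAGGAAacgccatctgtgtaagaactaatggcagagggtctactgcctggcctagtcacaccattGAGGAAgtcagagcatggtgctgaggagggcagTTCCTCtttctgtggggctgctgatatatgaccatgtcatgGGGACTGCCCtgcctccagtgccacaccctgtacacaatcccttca
Pilra: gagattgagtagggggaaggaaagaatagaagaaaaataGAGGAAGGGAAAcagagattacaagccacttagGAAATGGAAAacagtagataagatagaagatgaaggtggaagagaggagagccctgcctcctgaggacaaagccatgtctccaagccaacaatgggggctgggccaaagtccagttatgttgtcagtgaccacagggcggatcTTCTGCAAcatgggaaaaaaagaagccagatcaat
Pilrb1: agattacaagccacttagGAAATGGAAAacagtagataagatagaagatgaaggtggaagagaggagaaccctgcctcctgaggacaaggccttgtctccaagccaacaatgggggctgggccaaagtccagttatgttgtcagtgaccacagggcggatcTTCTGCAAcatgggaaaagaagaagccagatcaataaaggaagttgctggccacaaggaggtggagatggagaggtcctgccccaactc
Cd300lf: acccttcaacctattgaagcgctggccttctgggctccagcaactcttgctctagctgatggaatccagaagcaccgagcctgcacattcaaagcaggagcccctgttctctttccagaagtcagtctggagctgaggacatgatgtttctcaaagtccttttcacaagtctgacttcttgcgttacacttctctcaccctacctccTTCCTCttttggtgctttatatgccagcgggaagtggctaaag
Cd72: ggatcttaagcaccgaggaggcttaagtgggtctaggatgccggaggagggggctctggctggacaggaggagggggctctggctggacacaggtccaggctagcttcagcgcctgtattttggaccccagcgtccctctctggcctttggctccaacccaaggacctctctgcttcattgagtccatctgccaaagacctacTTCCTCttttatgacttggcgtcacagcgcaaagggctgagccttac
Lair1: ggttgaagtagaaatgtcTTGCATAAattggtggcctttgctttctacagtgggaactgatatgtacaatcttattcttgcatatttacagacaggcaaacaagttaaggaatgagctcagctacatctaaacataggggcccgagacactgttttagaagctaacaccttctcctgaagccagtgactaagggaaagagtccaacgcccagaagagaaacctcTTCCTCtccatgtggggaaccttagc
On the mm9 genome, the windows were chr7:3671985-3672234 for Pirb, chr5:138277507-138277756 for Pilra, chr5:138299278-138299527 for Pilrb1, chr11:114995307-114995556 for Cd300lf, chr4:43467499-43467748 for Cd72 and chr7:4014807-4015056 for Lair1, all on the minus strand.

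The core GAGGAA was present in 6 of the 8 member promoters, against 23.3% of 32851 mouse promoters of the same length. In Cd300lf, Cd72 and Lair1, and in Cd300a, it was read on the opposite strand as TTCCTC, with its first base 43, 47, 26 and 39 bases before the start. Pirb held it 3 times, 185, 120 and 87 bases before the start, and was the only member with the kappaB-type motif, 46 bases before the start (17.6% of all promoters). The C/EBP motif stood in 4 of 8 members (9.6% of all promoters), namely Cd300a, Lair1, Pilra and Pilrb1. Pilra and Pilrb1 shared the interferon response motif (3.0% of all promoters), and in Pilra alone the composite motif (2.3%) overlapped a GAGGAA core. The AP-1 (6.7%) and STAT (7.0%) motifs were in none of these 8 windows. Such matches describe letters and not binding sites. The aligned part of the Pilra and Pilrb1 windows had 192 identical bases and 4 mismatches, with the Pilrb1 window set further downstream, and the Pilrb1 and Pilrb2 windows were 98.4% identical.

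With LPS, 6 of the 8 members tested in engrafted cells and 7 of the 8 tested in host microglia passed the test and the 2-fold limit, while 21.5% and 18.0% of all genes tested did so. The members, and the lists counted further below, were chosen with earlier results of these data known. Their counts beside the shares of all genes are thus no test of the group. In engrafted cells, the 4 genes Pirb, Pilra, Pilrb1 and Cd300lf rose and the 2 genes Lst1 and Lair1 fell, against 10.2% and 11.3% of all genes. In host microglia, the 4 genes Pilra, Pilrb1, Cd300lf and Cd72 rose and the 3 genes Cd300a, Lst1 and Lair1 fell, against 7.66% and 10.4% of all genes. In both populations Pilrb1 passed the filter on low counts only through its LPS libraries, and so did Cd300lf in engrafted cells, whose controls held 6 to 13 reads, so that their calls follow in part from the filter. Without these genes, 4 of 6 members were called in engrafted cells and 6 of 7 in host microglia. The shares of all genes were not recounted in this way, so 21.5% and 18.0% do not match these reduced counts. Cd300lb was too low to be tested anywhere. The median log2 fold change of the tested members was 1.12 in engrafted cells and 1.30 in host microglia, against -0.01 and 0.01 over all genes tested, and 0.32 and 0.88 without the genes that passed the filter only through the group in which they were high. The LPS response differed between the populations for Pirb, Cd300a, Lst1 and Cd72, 4 of 8 members tested in the interaction against 4.95% of all genes. It was higher in engrafted cells for 3 of them (2.45% of all genes) and lower for Cd72 (2.50%).

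**Figure D1:**
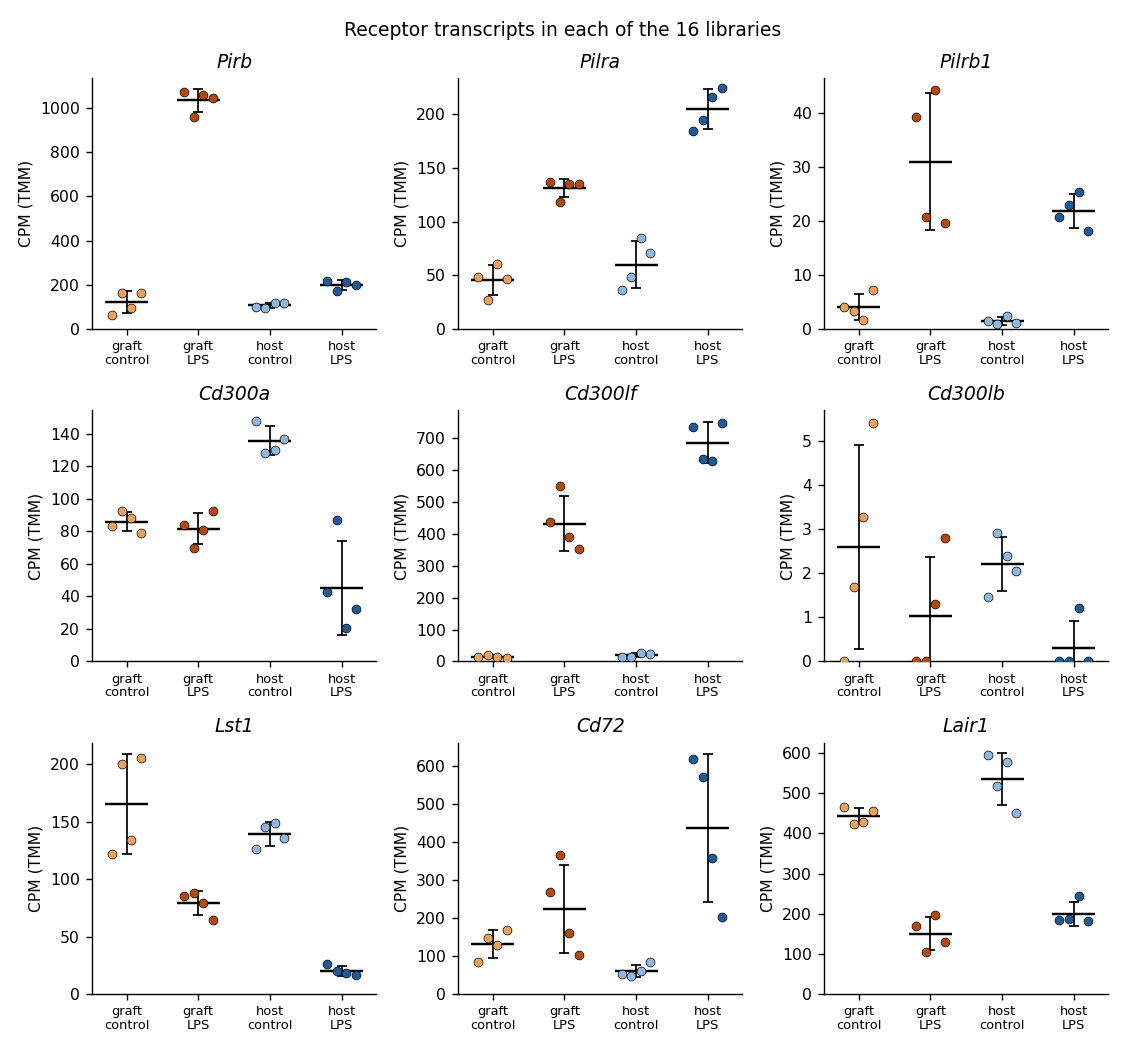
CPM (TMM-scaled, linear axes from 0) of the 9 genes in each of the 16 libraries. Points are libraries, bars are means and whiskers SDs of 4 libraries, and graft stands for engrafted cells. Pirb stands at 960.1 to 1072 CPM in engrafted cells after LPS and at no more than 219 CPM elsewhere, whereas Cd300lf is high after LPS in both populations.

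Pirb encodes paired immunoglobulin-like receptor B, an inhibitory receptor for MHC class I. In unchallenged mice 5 to 8 its level was 65.5, 162, 93.4 and 162 CPM in engrafted cells and 99.5, 97.1, 116 and 116 CPM in host microglia. After LPS, mice 1 to 4 had 1072, 960.1, 1060.4 and 1046 CPM in engrafted cells and 219, 170.5, 212 and 198 CPM in host microglia. Every LPS library stood above all control libraries of its population, but the engrafted cells of each challenged mouse held 4.89 to 5.63 times the level of the host microglia from the same brain. By edgeR's quasi-likelihood test the log2 fold change with LPS was 3.08 (SE 0.25, adjusted p = 1.06e-08) in engrafted cells and 0.88 (SE 0.15, adjusted p = 6.97e-05) in host microglia, where it missed the 2-fold limit. The difference of these responses was 2.19 on the log2 scale (SE 0.30, adjusted p = 2.56e-05). The study lists Pirb as upregulated in its graft-specific response to LPS, also at a 2-fold limit. The smaller rise in host microglia passed the adjusted p here but not that limit.

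Between the populations, Pirb did not pass the test without LPS (log2 fold change 0.18, 95% interval -0.24 to 0.60, adjusted p = 0.559 by edgeR). After LPS it was 2.40 higher in engrafted cells on the log2 scale (SE 0.19, edgeR adjusted p = 5.06e-08). Markers of monocytes were summed in the same libraries. Their summed level was 245 to 358 CPM in engrafted controls and 1194 to 2362 CPM in engrafted cells after LPS, with all 11 listed genes above 3 reads in some library, against at most 31.7 CPM in host controls and 65.4 CPM in host microglia after LPS. Of this list, Ly6c1 and Ace overlapped between the engrafted groups, and Ccr2 was lower after LPS. Ly6c1 was at 0 to 22.2 CPM in engrafted controls and at 4.47 to 8.41 CPM in engrafted cells after LPS. All others, among them Ly6c2, Plac8, Chil3 and F13a1, were higher in every engrafted library after LPS. Ly6c2 was at 21.6 to 39.3 CPM in engrafted controls and at 412 to 871 CPM in engrafted cells after LPS. Plac8 was at 10.1 to 30.2 CPM and 202 to 630 CPM in these groups. Neutrophil markers summed to 268 to 1248 CPM in engrafted controls and 50.0 to 516 CPM in engrafted cells after LPS. Of that list, only Mmp8 did not overlap between the engrafted groups, at 0 to 1.01 CPM in controls and 16.8 to 41.4 CPM after LPS. In mouse 2, with the lowest sum of 50.0 CPM, Pirb was at 960.1 CPM, against 1046 to 1072 CPM in the other engrafted libraries after LPS. Chil3 was at 0 in host controls. The sort had left out cells positive for Ly6C/G. The part of monocyte and neutrophil markers in the differences of Pirb, Lst1 and Cd300a after LPS was not tested.

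Pilra encodes the inhibitory member of the paired immunoglobulin-like type 2 receptors, which bind glycosylated proteins. In control mice 5 to 8 it was at 48.4, 27.0, 60.6 and 46.8 CPM in engrafted cells and at 36.6, 48.6, 84.5 and 70.5 CPM in host microglia. After LPS, mice 1 to 4 had 136, 118, 135 and 135 CPM in engrafted cells and 185, 194, 216 and 224 CPM in host microglia. The LPS libraries lay above the controls in both populations without overlap. LPS raised Pilra by 1.47 on the log2 scale in engrafted cells (SE 0.21, adjusted p = 1.68e-05) and by 1.72 in host microglia (SE 0.19, adjusted p = 3.44e-07) by edgeR. The responses did not pass the test of their difference (-0.27, 95% interval -0.88 to 0.34, edgeR adjusted p = 0.685). All 4 challenged engrafted libraries were below all 4 challenged host libraries, a log2 difference of -0.62 (edgeR adjusted p = 0.0189) that missed the 2-fold limit. Without LPS the log2 difference of -0.36 (95% interval -0.85 to 0.13) did not pass the test.

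Pilrb1 encodes the activating counterpart, which signals through the Tyrobp adaptor. It had 1 to 4 reads in each unchallenged engrafted library and 1 to 3 in each unchallenged host library. In mice 1 to 4 after LPS it had 35, 17, 34 and 7 reads in engrafted cells, or 39.1, 20.7, 44.2 and 19.6 CPM, and 18, 23, 21 and 13 reads in host microglia, or 20.6, 22.9, 25.4 and 18.1 CPM. All LPS libraries stood above all controls of their population. Summed over the libraries, the reads rose from 11 to 93 in engrafted cells, a ratio of 8.20 after scaling (95% counting interval 4.38 to 17.0, which covers counting error only), and from 6 to 75 in host microglia, a ratio of 14.4 (6.32 to 40.5). The fitted log2 changes were 2.91 (edgeR adjusted p = 3.17e-05) and 3.72 (edgeR adjusted p = 3.36e-07), and the interval of their difference, -2.23 to 0.62, was wide. Between the populations after LPS, the log2 difference of 0.57 (95% interval -0.06 to 1.20, edgeR adjusted p = 0.224) did not pass the test.

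Pilrb1 was also set against its inhibitory partner as a share of the pair's reads, a measure chosen after the values were seen and not corrected for length. Its share of Pilra and Pilrb1 reads was 8.69% ± 4.66 (SD, n = 4) in engrafted controls, 18.6% ± 5.72 in engrafted cells after LPS, 2.50% ± 1.05 in host controls and 9.64% ± 1.47 in host microglia after LPS. The challenged engrafted libraries, at 12.7 to 24.6%, all stood above the challenged host libraries, at 7.47 to 10.6%. This gave an exact two-sided permutation p of 0.0286, the smallest that 4 libraries against 4 allow, which became 0.0572 after adjustment over 8 such tests, so that no difference in share passed. LPS against control in host microglia gave the same exact permutation p, while LPS in engrafted cells gave p = 0.0571 and the populations without LPS p = 0.0857 by the exact permutation test. Of the 50-base words in the last 500 bases of Pilrb1, 29.5% recur in Pilrb2, so reads of these 2 genes can be lost or split when only unique matches are kept. Pilrb2 went from 9 to 58 reads in host microglia (edgeR log2 fold change 2.80, adjusted p = 2.17e-05) and from 11 to 53 reads in engrafted cells, where it missed the filter. With both activating genes counted against all 3, the share was 26.8% ± 5.90 in engrafted cells and 15.9% ± 1.93 in host microglia after LPS (n = 4 each, exact permutation p = 0.0286).

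**Figure D2:**
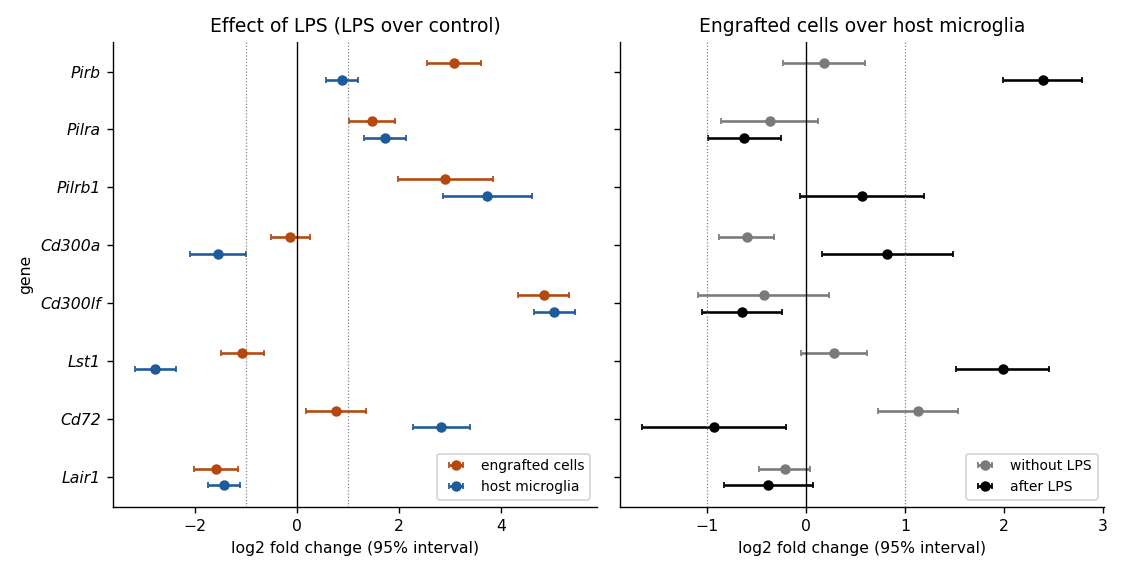
Log2 fold changes of the 8 members tested, with 95% intervals from edgeR, for LPS over control in each population (left) and for engrafted cells over host microglia without and after LPS (right). Dotted lines mark 2-fold changes. Pirb and Lst1 lie to the right of the 2-fold line between the populations after LPS, at 2.40 and 1.99, and not without LPS.

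Cd300lf encodes an inhibitory member of the CD300 family, which binds phospholipids, and had the largest LPS log2 fold change of the 8 members tested in each population, in engrafted cells with the limit of the filter given above. In control mice 5 to 8 it stood at 13.1, 20.2, 14.7 and 10.8 CPM in engrafted cells and at 14.6, 15.5, 26.3 and 23.5 CPM in host microglia. After LPS, mice 1 to 4 had 437, 549, 389 and 353 CPM in engrafted cells and 734, 633, 629 and 748 CPM in host microglia. Every LPS library stood above every control of its population. The log2 fold change was 4.83 in engrafted cells (SE 0.24, adjusted p = 1.54e-11) and 5.05 in host microglia (SE 0.20, adjusted p = 8.35e-14) by edgeR. The interaction was -0.22 (95% interval -0.91 to 0.47, edgeR adjusted p = 0.839). After LPS, engrafted libraries all lay below host libraries, by 0.64 on the log2 scale (edgeR adjusted p = 0.0259), less than 2-fold. Without LPS the log2 difference of -0.43 (95% interval -1.09 to 0.24) did not pass the test.

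Cd300a encodes another inhibitory CD300 receptor, which recognises phospholipids on dying cells. In engrafted cells it was at 83.6, 92.7, 88.5 and 79.2 CPM in control mice 5 to 8 and at 83.9, 69.5, 80.7 and 92.5 CPM in challenged mice 1 to 4. In host microglia it was at 148, 128, 130.0 and 137 CPM in controls and at 42.4, 86.7, 20.5 and 32.0 CPM after LPS. The engrafted groups overlapped, whereas every host library after LPS lay below every host control. The log2 fold change with LPS was -0.13 in engrafted cells (95% interval -0.51 to 0.25, adjusted p = 0.603) and -1.55 in host microglia (SE 0.26, adjusted p = 6.62e-05) by edgeR. The interaction was 1.41 (SE 0.34, edgeR adjusted p = 0.0124).

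Between the populations, the Cd300a difference was negative without LPS and positive after it, though neither was called. Without LPS it was lower in engrafted cells, with no overlap, by 0.60 on the log2 scale (edgeR adjusted p = 0.00129), which is less than 2-fold. After LPS it was 1.98, 3.93 and 2.89 times the host level in mice 1, 3 and 4, and 0.80 times that level in mouse 2. The log2 difference after LPS was 0.82 (edgeR adjusted p = 0.0868), and 0.93 (adjusted p = 0.0292) with the mouse as a block. Without the host library of mouse 2 it was 1.36 (edgeR adjusted p = 0.00126), past the 2-fold limit.

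Cd300lb encodes an activating CD300 receptor that pairs with Tyrobp. It had no more than 3 reads in any of the 16 libraries, 18 reads in all, too few for a fold at this depth. In host microglia the reads were 1, 3, 3 and 2 in control mice 5 to 8 and 0, 0, 1 and 0 in challenged mice 1 to 4 (exact permutation p = 0.0286 on CPM, the smallest possible). The host libraries of mice 5 and 3 tie at 1 read, and only scaling sets them apart (1.46 and 1.21 CPM), so no fall is read from this. Between these members lies Cd300c2, an activating relative, which fell in engrafted cells by 1.77 on the log2 scale (edgeR adjusted p = 5.04e-06) and in host microglia by 0.80 (edgeR adjusted p = 8.29e-05), the latter under 2-fold. Cd300ld had 15 to 35 reads per group after LPS, Cd300e had 12 reads at most in a group, and both missed the filter in all 4 comparisons of 2 groups.

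**Figure D3:**
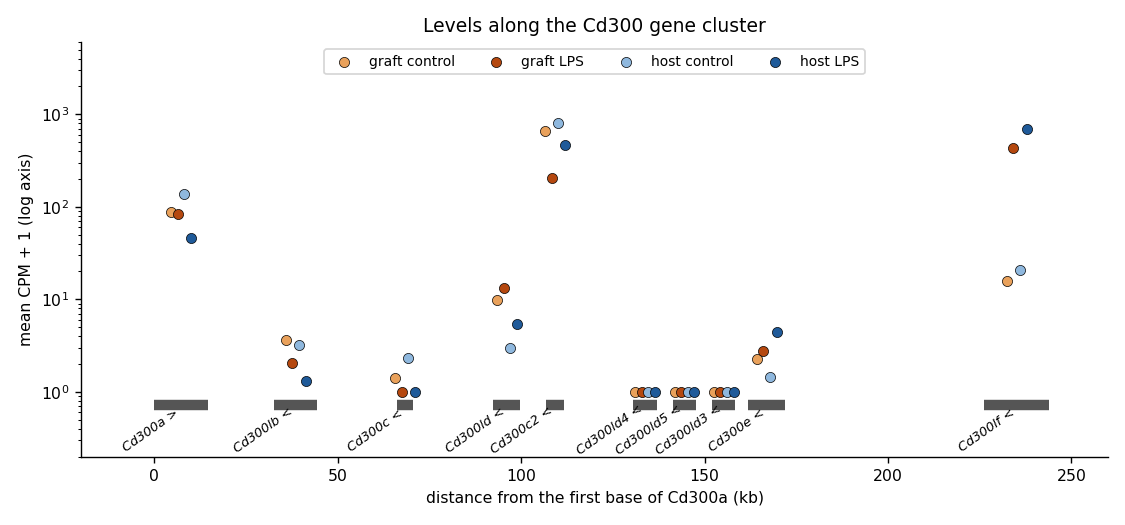
Mean CPM + 1 (log axis, 4 libraries per group) of the genes of the Cd300 cluster against distance from the first base of Cd300a in kb. Grey bars are gene bodies, signs after the names give the strand, and graft stands for engrafted cells. With LPS, Cd300lf rises from 14.7 to 432 CPM in engrafted cells and from 20.0 to 686 CPM in host microglia, while Cd300c2 is lower and Cd300lb stays near 0.

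Lair1 encodes an inhibitory receptor for collagen and C1q and fell with LPS in both populations. Control mice 5 to 8 had 465, 423, 429 and 455 CPM in engrafted cells and 594, 519, 578 and 450.3 CPM in host microglia. Challenged mice 1 to 4 had 170.0, 105, 198 and 129 CPM in engrafted cells and 185, 186, 245 and 182 CPM in host microglia. No library after LPS reached any control. The log2 fold change was -1.59 in engrafted cells (SE 0.20, adjusted p = 3.6e-06) and -1.44 in host microglia (SE 0.15, adjusted p = 1.63e-07) by edgeR. Neither the interaction (-0.17, 95% interval -0.68 to 0.35) nor the difference between populations without LPS (-0.22, -0.47 to 0.04) or after LPS (-0.38, -0.83 to 0.07) passed the test.

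Lst1 encodes leukocyte-specific transcript 1, a small membrane protein with inhibitory motifs, and fell with LPS in both populations but further in host microglia. Control mice 5 to 8 had 122, 201, 134 and 205 CPM in engrafted cells and 126, 146, 149 and 136 CPM in host microglia. After LPS, mice 1 to 4 had 85.0, 87.8, 79.4 and 64.5 CPM in engrafted cells and 26.4, 19.9, 18.1 and 16.7 CPM in host microglia. All LPS libraries lay below their controls, and after LPS all engrafted libraries lay above all host libraries, at 3.22 to 4.40 times the level in the same mouse. LPS lowered Lst1 by edgeR with a log2 fold change of -1.07 in engrafted cells (SE 0.20, adjusted p = 3e-04) and -2.78 in host microglia (SE 0.19, adjusted p = 3.44e-10), and the interaction was 1.70 (SE 0.28, adjusted p = 0.000251). The fall in engrafted cells came under 2-fold without the engrafted library of control mouse 6 (-0.96), of control mouse 8 (-0.95) or of challenged mouse 4 (-0.998), with adjusted p still below 0.05. The populations did not pass the test without LPS (0.29, 95% interval -0.05 to 0.62, edgeR adjusted p = 0.208). After LPS, Lst1 was higher in engrafted cells by 1.99 on the log2 scale (SE 0.22, edgeR adjusted p = 3.38e-06).

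Pirb and Lst1 were thus the 2 of 8 members called between the populations after LPS, both of them higher in engrafted cells, where 11.1% of all genes tested were called, 6.73% higher and 4.34% lower. Scaling by library totals in place of TMM moved the median log2 difference of all genes after LPS from -0.01 to -0.16. Both calls stood well beyond that shift.

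Cd72 encodes a C-type lectin with an inhibitory motif, best known from B cells, whose ligand is the semaphorin encoded by Sema4d. It was the single member, 1 of 7 tested, called between the populations without LPS, and it was higher in engrafted cells. Of all genes, 11.0% were called there, 6.25% higher and 4.73% lower. Control mice 5 to 8 had 83.6, 148, 128 and 169 CPM in engrafted cells and 52.7, 47.6, 60.6 and 83.7 CPM in host microglia. The groups touched at 83.6 and 83.7 CPM, but within each mouse the engrafted cells were 1.59 to 3.12 times higher. The log2 difference was 1.13 (SE 0.20, edgeR adjusted p = 7.02e-05), and 0.98 (adjusted p = 0.000706), under 2-fold, without the engrafted library of mouse 8.

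In each challenged mouse the order of Cd72 was the opposite. Mice 1 to 4 had 268, 365, 160.0 and 104 CPM in engrafted cells and 619, 571, 357 and 202 CPM in host microglia. Mice 1 and 2 were high and mouse 4 was low in both populations, and in each mouse the engrafted cells held 0.433 to 0.638 times the host level. Because the mice differed, the groups overlapped and the log2 difference of -0.93 did not pass edgeR's test (adjusted p = 0.0778). With the mouse as a block it was -0.97 (edgeR adjusted p = 0.000559), still under 2-fold, and it passed 2-fold without the engrafted library of mouse 2 (-1.25, edgeR adjusted p = 0.0264) or the host library of mouse 4 (-1.16, adjusted p = 0.0195).

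LPS raised Cd72 in host microglia by 2.82 on the log2 scale (SE 0.27, edgeR adjusted p = 3.06e-08), with no overlap. In engrafted cells, where mice 3 and 4 lay among the controls, the change of 0.76 (SE 0.28, edgeR adjusted p = 0.0389) missed the 2-fold limit. The interaction was -2.07 (SE 0.45, edgeR adjusted p = 0.00436). The defining B cell genes Cd79a, Pax5, Cr2 and Vpreb3 were at 0 reads in every library. Of the 10 listed B cell genes only 2, Cd79b and Blnk, exceeded 3 reads anywhere, and the summed level of the list was 275 to 412 CPM in engrafted controls and 94.98 to 112 CPM in engrafted cells after LPS. In host microglia it went from 349 to 382 CPM in controls to 79.7 to 146 CPM after LPS. Most of this sum was Blnk, at 300 to 337 CPM in host controls. The part of B cells in the changes of Cd72 was not tested.

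**Figure D4:**
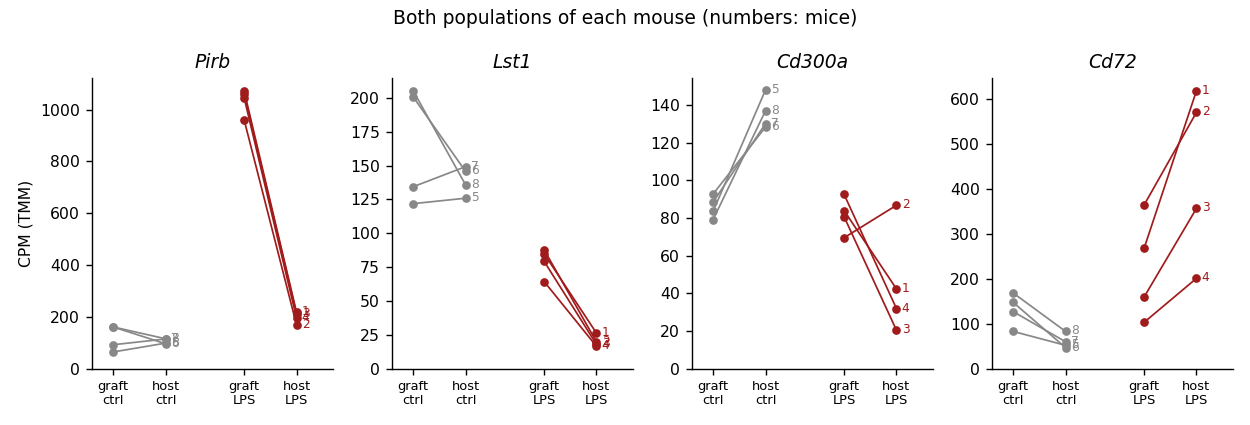
CPM of 4 members in both populations of each mouse, joined by a line (grey, control mice 5 to 8, and red, challenged mice 1 to 4), with linear axes from 0. After LPS the lines for Pirb and Lst1 fall from engrafted cells (graft) to host microglia in all 4 mice, those for Cd72 rise in all 4, and Cd300a of mouse 2 runs against the other three.

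The wider group of receptors, a list of 58 symbols of which 56 were used, also had calls in both directions. With LPS, 11 of the 27 tested rose and 7 fell in engrafted cells, against 10.2% and 11.3% of all genes, and 9 of 28 rose and 9 fell in host microglia, against 7.66% and 10.4%. Of these calls, 9 in engrafted cells and 12 in host microglia were of genes whose lower group did not meet the filter by itself, among them Trem1, Cd244, Lilra5 and Cd200r1 in both populations, Trem3 in engrafted cells and Pdcd1 in host microglia. Of the others, 9 of 17 were called in engrafted cells and 6 of 15 in host microglia, without a matching recount over all genes. Trem1, which amplifies inflammatory signals, went from 3 to 299 reads in engrafted cells, a ratio of 96.6 (95% counting interval 32.7 to 471), and from 5 to 352 in host microglia, a ratio of 81.2 (34.5 to 252). Its relative Trem3 went from 2 to 142 reads in engrafted cells (ratio 68.8, 18.7 to 574). Cd244, a receptor with both kinds of function, went from 10 to 267 reads in host microglia (ratio 30.8, 16.5 to 64.9). The lectin Clec12a, an inhibitory receptor, fell in engrafted cells from 512 to 74.0 CPM (log2 fold change -2.83, edgeR adjusted p = 4.76e-10), and Lilra5, an activating receptor, had a log2 fold change of -3.05 there (edgeR adjusted p = 2.28e-05). In host microglia, Pdcd1 went from 112 to 7 reads (ratio 0.0721, 0.0283 to 0.153), and Cd200r1, the receptor for CD200, fell by 1.75 on the log2 scale (edgeR adjusted p = 0.000138).

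The LPS log2 fold change differed between populations for 5 of 32 receptors of that list, 4 higher in engrafted cells and 1 lower, against 2.45% and 2.50% of all genes. Which of these calls rest on groups that did not meet the filter by themselves was not counted. The lower count was 4 without the engrafted library of challenged mouse 4 and 2 without the host library of control mouse 7. Lilrb4a, which is inhibitory and related to Pirb, rose from 48.7 to 561 CPM in host microglia and from 693 to 1176 CPM in engrafted cells, an interaction of -2.79 (SE 0.25, edgeR adjusted p = 1.81e-08). Ceacam1, also inhibitory, had an interaction of 3.64 (SE 0.43, edgeR adjusted p = 2.01e-06), since it rose in engrafted cells and fell in host microglia. Its lower group in each, engrafted controls with 36 reads and challenged host microglia with 36, did not meet the filter by itself. Pecam1 had 5 reads in engrafted controls and 65 after LPS, and 60 and 38 in host microglia. The Pira genes, activating partners of Pirb, had 0 to 17 reads per group, Lilra6 (listed as Pira3) included, and all their models in the table but Pira6 overlap another, so that their values cannot be told apart. Between the populations, 7 of 27 receptors were higher and 5 lower in engrafted cells without LPS, against 6.25% and 4.73% of all genes, and 8 of 26 were higher and 2 lower after LPS, against 6.73% and 4.34%. For 10 of the 12 calls without LPS and 5 of the 10 after it, including Clec12a, Klra2 and Cd101 at both times and Siglecf and Pdcd1 without LPS, the lower group did not meet the filter by itself. Of the other receptors, 2 of 14 were called without LPS, 2 higher and 0 lower. After LPS it was 5 of 20, 4 higher and 1 lower. The shares of all genes were not recounted in this way. Clec12a had 1401 reads in engrafted controls against 9 in host controls, and 211 against 4 after LPS, Klra2 had 110 against 1 and 218 against 7, and Siglecf had 6 against 141 without LPS. Without LPS, Pdcd1 was lower in engrafted cells by 2.02 on the log2 scale (edgeR adjusted p = 0.000477), and after LPS Cd101 was lower by 2.67 (edgeR adjusted p = 3.07e-06) and Cd244 by 1.55 (edgeR adjusted p = 5.44e-05).

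**Figure D5:**
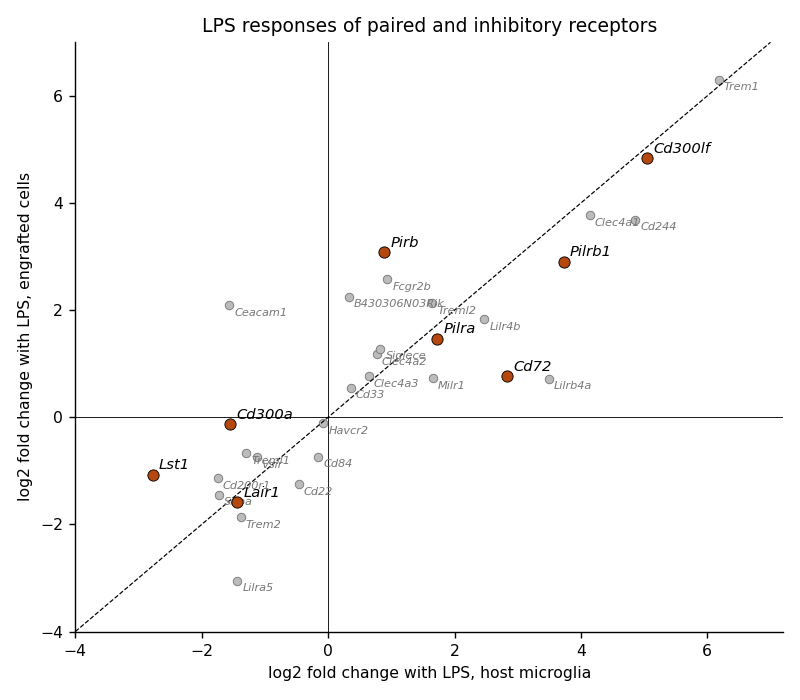
Log2 fold change with LPS in host microglia (x axis) and in engrafted cells (y axis), for the 8 members (orange) and for the other listed receptors tested in both populations (grey). The dashed line marks equal changes. Pirb, Lst1 and Cd300a lie above it and Cd72 below it, whereas Cd300lf, Pilra and Lair1 lie close to it.

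A list of 27 adaptors, kinases and phosphatases that serve these receptors was also examined. With LPS, 3 of 24 rose and 0 fell in engrafted cells by edgeR, against 10.2% and 11.3% of all genes, and 0 fell at unadjusted p and by DESeq2. The count that fell was 1 without control mouse 6 or challenged mouse 3 and 2 without challenged mouse 4, and the count that rose was 5 and 6 without challenged mice 3 and 4. In host microglia 3 of 23 rose and 1 fell, against 7.66% and 10.4% of all genes, and the count that fell was 2 without control mouse 6. In the interaction, 0 of 26 were called by edgeR and by DESeq2, while at unadjusted p 1 was higher and 2 were lower, and 1 was higher without the engrafted library of mouse 4 or 5 or the host library of mouse 2. Tyrobp did not pass edgeR's test with LPS in engrafted cells (log2 fold change -0.12, 95% interval -0.48 to 0.24, adjusted p = 0.611) or in host microglia (-0.10, -0.38 to 0.18, adjusted p = 0.597). Fcer1g, the adaptor of activating Fc and Pira receptors, rose in engrafted cells by 1.03 on the log2 scale (edgeR adjusted p = 0.00013) and by 0.40 in host microglia (edgeR adjusted p = 0.0238), the latter under 2-fold. Of the phosphatase genes, Ptpn6 had a log2 fold change of -0.23 in engrafted cells (edgeR adjusted p = 0.324) and -0.47 in host microglia (adjusted p = 0.00796), and Inpp5d one of -0.37 (adjusted p = 0.122) and -0.49 (adjusted p = 0.0142). In engrafted cells Fgr and Dok2, with 29 and 27 reads in the controls, passed the filter only through the LPS libraries. The Src-family kinase gene Fgr rose in both, by 4.31 (edgeR adjusted p = 2.31e-10) and 3.42 (adjusted p = 5.2e-11). The adaptor gene Dok2 rose by 3.50 in engrafted cells (edgeR adjusted p = 2.28e-08), Dok3 rose by 1.83 in host microglia (adjusted p = 3.61e-08) and the phosphatase gene Inppl1 fell there by 1.36 (adjusted p = 6.02e-05).

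Between the populations, Sh2d1b1 was 3.49 (edgeR adjusted p = 1.11e-06) and Dok3 1.25 (adjusted p = 9.78e-08) higher in engrafted cells without LPS on the log2 scale, and Pag1 was lower by 1.70 (adjusted p = 2.76e-09). After LPS, Dok2 was 3.65 higher (edgeR adjusted p = 7.49e-08) and Pag1 lower by 1.83 (adjusted p = 2.06e-05). Sh2d1b1 had 14 reads in host controls and Dok2 had 32 in host microglia after LPS, and both passed the filter only through the engrafted libraries. Of 16 ligand genes listed, 9 were tested. Cd47, a ligand of the inhibitory receptor Sirpa, rose with LPS by 1.81 in engrafted cells (edgeR adjusted p = 2.26e-07) and 1.05 in host microglia (adjusted p = 3.75e-05). Sema4d, the ligand of Cd72, fell by 1.62 (edgeR adjusted p = 2.36e-05) and 1.82 (adjusted p = 3.69e-08), while Cd72 rose in host microglia. The call of Cd47 in host microglia was lost without control mouse 8 or challenged mouse 2. Between the populations and in the interaction, 0 ligands were called by edgeR, at unadjusted p or by DESeq2, but 4 were higher in engrafted cells without LPS when no filter was used, and 1 after LPS without the engrafted library of mouse 3 or the host library of mouse 2.

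The 16 libraries fall into 4 groups, so that genes following LPS correlate with one another, and the values below describe likeness without a test. Among 3785 genes with a mean level of 50 CPM or more, those whose log2 CPM was most like Pirb were Amica1 (Pearson r = 0.98), Arg1 and Cstb. Cd300lf was closest to Ms4a6d (r = 0.99), Fkbp5 and Fcgr4, and Pilra to Tmem268 (r = 0.94), Ccdc86 and Tomm40. Pilrb1 was closest to App (r = 0.96), Dram2 and Eea1, and Cd72 to Tlr2 (r = 0.96), Rpl14 and Ccnd2. Of the genes that fell, Lair1 was closest to Gpr34 (r = 0.98), Qk and Kif21b, Lst1 to Kat6a (r = 0.92), Cbfa2t3 and Rasa4, and Cd300a to Cln8 (r = 0.86), Fam213b and Saysd1. Among the members, Cd300lf and Pilra had r = 0.93, Cd300lf and Lair1 -0.91, and Pirb and Lst1 -0.22.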

How the data were processed

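RNA of 16 sorted samples had been captured by oligo(dT) and made into libraries by a derivation of MARS-seq, which reads the 3′ end of transcripts. The authors mapped reads to mm9 with HISAT (version 0.1.5 in the submitters' processing notes), kept unique matches and deposited raw read counts over the exons of 1 model per gene, on the sense strand, with HOMER. Whether molecular identifiers were collapsed is not given in the sources used here. Groups come from the sample titles. No column belonged to another sample (0).

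Genes were filtered by edgeR's filterByExpr (minimum count 10, minimum total 15), scaled by TMM and tested in R 4.3.3 with edgeR 4.0.16 by quasi-likelihood F tests, each comparison on its 8 libraries and the interaction on all 16. Log2 CPM for correlations had a prior count of 2. SEs come from the F statistic. Genes that missed the filter were compared by two-sided exact permutation tests over libraries (smallest p 0.029). Replicates are separate mice. Both populations came from the same animal, so mouse numbers pair the libraries. Pearson's r of group-centred values within mice 1 to 8 was 0.146, 0.0187, 0.210, 0.126, 0.0243, -0.0298, 0.0477 and 0.0835. The main tests have no term for the mouse, which was a block among the alternatives. The others were RLE factors, library totals, DESeq2 1.42.0, no filter, at least 10 reads per library, unadjusted p, limma-trend (3.58.1) on the study's scale, 1 fit of all libraries, and leaving out each library. The scripts were tested on simulated data.

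The members and lists were chosen with earlier results of these data known. Besides the members, the text names from each list the 2 called genes per direction and comparison with the largest change, Tyrobp, Fcer1g, Ptpn6 and Inpp5d, paralogs and neighbours, and the 3 genes most like each member tested. Promoters were searched in Python 3.11.15 with Biopython 1.88. Some genes of the marker lists are not reported here by name.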

Additional observations from a re-analysis of the deposited data

Results flagged for a closer look

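The response to LPS differed between engrafted cells and host microglia for 4 members, by edgeR's test of the interaction with Benjamini-Hochberg adjustment, on the log2 scale. The difference, engrafted cells minus host microglia, was 2.19 for Pirb, 1.41 for Cd300a, 1.70 for Lst1 and -2.07 for Cd72. Among 31 groups of 4 libraries tested, 2 held a library far from the other three, where chance gives about 1 in 20 groups. These were Pilra in the engrafted cells of challenged mouse 2, at 118 CPM below its group, and Lair1 in the host microglia of challenged mouse 3, at 245 CPM above its group.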

How the results depend on the processing

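Of the log2 fold changes of the members, 277 of 281 values under other settings and 366 of 376 with a library left out kept their direction and their side of the threshold. Those that turned sign were within their error of 0: Pirb between the populations without LPS, at -0.00938 with limma-trend on the study's scale, -0.00669 without the engrafted library of mouse 6 and -0.00506 without that of mouse 8 (-0.00669 to 0.43 over libraries left out), and Lair1 in the interaction, at 0.00704 without the engrafted library of challenged mouse 2 (-0.30 to 0.00704). Members called went from 1 to 0 without LPS under limma-trend (Cd72 at 0.95) and to 0 without the engrafted library of mouse 8 (0 to 1 over libraries left out). Over libraries left out they were 2 to 3 after LPS, 5 to 6 and 7 to 7 with LPS in engrafted cells and host microglia, and 4 to 4 in the interaction. With at least 10 reads in every library they were 4 and 6 with LPS, and the listed receptors called higher were 3 and 4 between the populations and 5 and 4 with LPS, against 11, 15, 20 and 11 with no filter. Genes called, 883, 868, 1636, 1484 and 438, became 1454 and 1352 between the populations with no filter, and with at least 10 reads in every library, where fewer genes are tested, 402, 381, 816, 871 and 251. With unadjusted p the interaction called 820. With a library left out they were 903 to 1050, 841 to 969, 1538 to 1889, 1460 to 1744 and 309 to 476. Scaling by library totals turned the split after LPS from 528 higher and 340 lower to 448 and 471, and took Cd72 to -1.07 (edgeR adjusted p = 0.0387). Limma-trend gave 342 higher and 411 lower without LPS, against 503 and 380, and 331 and 177 in the interaction, against 217 and 221, and took Lst1 in engrafted cells to -0.93. For other changes the cause was not tested. The replicate block (mice pair the populations, not the LPS and control groups) changed no call of a member (Cd72 in the interaction -2.14). Leaving out a library, chosen after seeing the data, kept the Pilrb1 share 7.93 to 11.9 and 6.79 to 7.87 percentage points higher with LPS in engrafted cells and host microglia, and 4.65 to 8.22 and 7.0 to 11.0 points higher in engrafted cells without and after LPS. Depth limits Pilrb1, Pilrb2 and Cd300lb most.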
